A study of Homo sapiens with 66 samples.

Results

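Intergenic editing cluster regions (ECRs) are stretches of transcribed DNA between annotated genes in which adenosine-to-inosine (A-to-I) editing sites lie close together. The study defined an ECR from clusters of at least 5 editing sites, each at most 50 bp from the next, extended by 1000 bp on both sides and merged. ECRs on chromosomes 1 to 22 and X were taken as intergenic when the midpoint of the interval lay in no GENCODE gene on GRCh37. This held for 277 of 2875 ECRs (9.63%), whereas the midpoint of 2511 ECRs lay in a gene and 87 lay on Y or on other sequences. Both RNA-seq studies of the series listed the same 277 regions, in the second among 2794 ECRs. Each region is named here by the closest gene end upstream on the strand of its editing sites and the distance from it to the first editing site, so that the first site of RPS15A+4.9kb lies 4.9 kb past the end of RPS15A.

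The cells were THP-1, a human monocytic leukemia line that carried a Cas9 transgene in every group and was nucleofected with gRNAs. Study 1 used 1 STING-deficient clone and 48 libraries of total RNA, with 3 replicates in each of 16 groups: CTRL (nontarget gRNA), GFP, ADAR, hnRNPC and ADAR+hnRNPC gRNAs on days 3, 4 and 5, and CTRL cells that received IFN-α, on day 4. Study 2 used 1 WT clone with other gRNAs against the same genes and 18 libraries of day 4, with 2 replicates in each of 9 groups. CTRL, ADAR, hnRNPC and ADAR+hnRNPC cells were measured there as total RNA and as a digitonin-soluble, cytosol-enriched fraction. The digitonin-insoluble fraction, enriched for nuclei and mitochondria, was measured for hnRNPC cells alone. The studies differ in clone, gRNAs and depth, so values are compared within a study.

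ADAR converts adenosine to inosine in double-stranded RNA, and sequencers read inosine as guanosine. In human RNA most such sites lie in Alu elements, short repeats that can pair with a neighboring copy in inverted orientation. hnRNPC binds uridine tracts, including those of antisense Alu elements, and is known for keeping splice sites and processing signals inside such elements silent. RNA between genes can come from read-through past a gene end, from an unannotated exon or from an unannotated transcript, and counts alone do not separate these.

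Gene counts per library ranged from 95107690 to 152829008 in study 1 and from 49666958 to 73873756 in study 2, and ECR counts from 5744521 to 9178045 and from 2860695 to 4259883. The intergenic regions held 7.38 to 8.59% of the ECR counts in study 1 and 6.35 to 8.15% in study 2, the lowest shares of study 1 being those of ADAR+hnRNPC cells on day 5 (7.38 to 7.47%). HNRNPC mRNA on day 4 was at 725 to 817 CPM (counts relative to the gene total of the library, scaled by the trimmed mean of M-values) in CTRL and at 336 to 355 in hnRNPC cells. ADAR mRNA was at 397 to 416 CPM in CTRL and 349 to 385 in ADAR cells of day 4, and at 858 to 869 and 448 to 564 in the total RNA of study 2. Medians of 9 of 10 monocytic marker genes were over 1 CPM in study 1 and of 8 of 10 in study 2, and none of 3 T cell, 3 erythroid, 3 epithelial and 3 fibroblast markers was, against 1 of 3 B cell markers. Libraries that stood apart were CTRL replicate 1 of day 5, in regions of chromosomes 4 and 18 described below, and the CTRL total RNA libraries of study 2, which differed from each other in mitochondrial MT-ND1 (37.0 and 155.6 CPM) and in HNRNPC (580.7 and 909.7 CPM). Named results whose call or size turned on them are given with and without them. In bulk RNA, fewer cells with a transcript and less of it per cell cannot be told apart.

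Most intergenic ECRs lay close behind a gene. The median distance from the upstream gene end on the same strand to the first editing site was 2317 bp (interquartile range 597 to 9779). Of the 277 regions, 94 (33.9%) had their first site within 1 kb, 183 (66.1%) within 5 kb, 229 (82.7%) within 20 kb and 256 (92.4%) within 50 kb of that end. For 95 regions the end of another gene, on either strand and on either side, was closer. The upstream gene was protein coding for 168 regions, a lncRNA for 64 and a processed pseudogene for 20.

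The flanks of an ECR could still reach into a gene, and 119 regions touched one while 158 lay wholly between genes. With protein-coding genes alone as the annotation, 571 ECRs would count as intergenic. Their lengths had a median of 2189 bp (2012 to 10224), against 2177 bp for ECRs in genes. The regions were not all independent, since they fell into 239 loci when neighbors within 20 kb were joined, and 29 loci held several. The largest locus, chr1:16145168-16160968, held 5 regions behind the lncRNA gene SPEN-AS1. Chromosome 1 held 48 regions, chromosome 19 held 24, chromosome 9 held 20 and chromosome 7 held 19.

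RNA levels per length were highest within 1 kb of the upstream gene end. The median in CTRL cells of day 4 was 3.67 reads per kilobase scaled to library size (RPKM) for regions within 1 kb of the upstream gene, 0.99 for 1 to 5 kb, 0.75 for 5 to 20 kb and 0.95 beyond 20 kb. The 5 highest regions were KIFBP+43.8kb (chr10:70846100-70848192, 520 RPKM), UBB+0.3kb (chr17:16285322-16287409, 254 RPKM), HMGB2+0.2kb (chr4:174251256-174253333, 136 RPKM), P4HB+6.7kb (chr17:79792446-79795303, 58.1 RPKM) and RPS6+0.4kb (chr9:19374166-19376278, 40.1 RPKM). All 5 touched a gene: KIFBP+43.8kb touched SRGN, which encodes serglycin, a proteoglycan of myeloid granules, P4HB+6.7kb touched PPP1R27, and the others touched the genes of ubiquitin, HMGB2 and ribosomal protein S6 themselves. Their reads can therefore include exons of these genes.

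The first comparison asked which intergenic ECRs change in abundance when hnRNPC is lost. On day 4, RNA from 27 regions rose and RNA from 4 fell in hnRNPC cells against CTRL, among 223 regions with enough counts to test (average log2 CPM of at least 4.5 on ECR totals). A region was called when its log2 fold change was at least 1 in size and the adjusted p at most 0.05 in edgeR's quasi-likelihood test over all 2528 ECRs tested. The higher calls made up 12.1% of the intergenic regions tested, beside 5.62% of all ECRs tested, while lower calls made up 1.27% of all ECRs. The median log2 fold change was 0.21 over the intergenic regions and 0.10 over all ECRs. In each of the 27 higher regions the 3 hnRNPC libraries lay above the 3 CTRL libraries without overlap. The regions were called on these same libraries, so this separation largely follows from the call and is not separate evidence. Its share over all ECRs was not counted. The 27 regions came from 20 loci.

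The region that rose most was RPS15A+4.9kb (chr16:18781831-18788703, 3914 bp from the nearest gene), behind the gene of a small ribosomal subunit protein. It was at 1.33, 1.26 and 1.28 CPM in the CTRL libraries of day 4, at 10.3, 9.19 and 8.24 CPM in hnRNPC, at 1.32, 1.10 and 1.10 CPM in ADAR and at 9.25, 7.90 and 8.86 CPM in ADAR+hnRNPC cells. All 6 libraries with hnRNPC gRNA were thus above all 6 without it, though the CTRL and hnRNPC libraries among them also gave the region its call. The log2 fold change in hnRNPC against CTRL was 2.84 ± 0.16 (SE, n = 3 and 3, edgeR adjusted p = 1.9e-17) on day 4, 3.05 ± 0.16 on day 3 and 2.72 ± 0.16 on day 5. Without CTRL replicate 1, the day 5 value of RPS15A+4.9kb was 2.64. RPS15A itself was at 297 to 397 CPM in CTRL and 312 to 357 CPM in hnRNPC cells on day 4, so the ranges of the gene overlapped on that day. On day 3 the gene was at 368, 376 and 406 CPM in CTRL and 313, 338 and 366 CPM in hnRNPC cells, and on day 5 at 381, 439 and 417 CPM and 281, 303 and 262 CPM. On both of these days its hnRNPC libraries lay below those of CTRL without overlap. On the 6 editing sites of this region that passed the site filter, 16.4, 14.5 and 16.7% of 54 to 62 reads were edited in hnRNPC cells, whereas no CTRL library had more than 20 reads there. A site passes if all libraries of any 1 group have enough reads and editing. With so few reads, CTRL could not pass most of these sites. They entered through groups where this RNA is higher, so the edited shares are not independent of the filter.

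COMMD4+0.0kb (chr15:75633245-75638129) touches COMMD4, which encodes a COMM domain protein, and holds 13 sites. It was at 4.98, 3.84 and 4.00 CPM in CTRL and 25.5, 21.2 and 21.0 CPM in hnRNPC cells, with a log2 fold change of 2.40 ± 0.15 (edgeR adjusted p = 2.3e-16). COMMD4 mRNA was at 73.2, 79.4 and 76.5 CPM in CTRL and at 65.9, 58.3 and 56.4 CPM in hnRNPC cells, so its libraries lay in the other order. Both regions behind the zinc finger gene ZNF773 rose as well. ZNF773+3.3kb (chr19:58032093-58034271) went from 0.570, 0.459 and 0.641 CPM to 3.23, 3.09 and 2.89 CPM (log2 fold change 2.46 ± 0.20, edgeR adjusted p = 4.4e-13). ZNF773+0.5kb (chr19:58029299-58031352), which touches the gene, went from 0.994, 0.992 and 0.742 CPM to 5.49, 4.67 and 4.68 CPM (2.45 ± 0.23). Here the gene itself was higher too, at 24.7 to 26.7 CPM in hnRNPC against 13.4 to 14.5 CPM in CTRL cells.

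Farther from its upstream gene, ENSG00000234941+158.0kb (chr10:38380212-38382376, touching the pseudogene FXYD6P2) was at 1.60, 1.37 and 1.28 CPM in CTRL and 5.60, 6.58 and 5.48 CPM in hnRNPC cells, a log2 fold change of 2.06 ± 0.17. POLR2J3+2.0kb (chr7:102172000-102177405) rose from 1.33, 0.945 and 1.14 CPM to 4.40, 3.20 and 3.62 CPM (1.72 ± 0.26). POLR2J3 belongs to a family of near-identical RNA polymerase II subunit genes, so unique mapping may have split reads around it and its value is uncertain. NCAPG2+2.6kb (chr7:158420098-158422282), behind a condensin II subunit gene, rose from 1.21, 1.38 and 1.51 CPM to 4.04, 4.27 and 3.73 CPM (1.55 ± 0.18), and ZFAND1+2.1kb (chr8:82610240-82612439) from 1.67, 1.63 and 1.50 CPM to 4.53, 4.40 and 4.58 CPM (1.49 ± 0.13). The CTRL and hnRNPC libraries of these 4 regions did not overlap, which largely follows from their call on the same libraries.

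SPEN-AS1+10.4kb (chr1:16148873-16151564) owed its value to 1 library. It was at 0.892, 0.628 and 0.868 CPM in CTRL and at 4.00, 1.36 and 1.41 CPM in hnRNPC cells, with a log2 fold change of 1.50 ± 0.42 (edgeR adjusted p = 0.0034). Without hnRNPC replicate 1 of day 4 the value fell to 0.80 and was not called. The remaining region among the 10 with the largest rise lies on chromosome 18 (chr18:18518391-18521190, ENSG00000266818+3247.6kb), with sites on the plus strand, its closest upstream gene on that strand 3247648 bp away, and the protein kinase gene ROCK1 on the other strand 3383 bp away. It was at 2.50, 3.66 and 2.07 CPM in CTRL, 8.54, 9.03 and 8.06 CPM in hnRNPC, 2.27, 1.93 and 1.85 CPM in ADAR and 10.4, 10.5 and 10.2 CPM in ADAR+hnRNPC cells (hnRNPC against CTRL 1.64 ± 0.26).

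On day 5 this chromosome 18 region was at 7.97 CPM in CTRL replicate 1 and at 2.73 and 3.53 CPM in the other CTRL libraries, against 7.38, 10.5 and 11.5 CPM in hnRNPC cells, so 1 CTRL library lay inside the hnRNPC range. For ENSG00000266818+3247.6kb the log2 fold change was 1.05 with that library and 1.65 without it, and the call was lost without CTRL replicate 2 or 3 or without hnRNPC replicate 2 or 3 of day 5. Its neighbor ROCK1+12.9kb (chr18:18510367-18512719) showed the same library at 4.12 CPM beside 1.79 and 1.27 CPM. For ROCK1+12.9kb the day 5 change of 0.91 was not called with CTRL replicate 1 and was 1.55 and called without it.

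**Figure D1:**
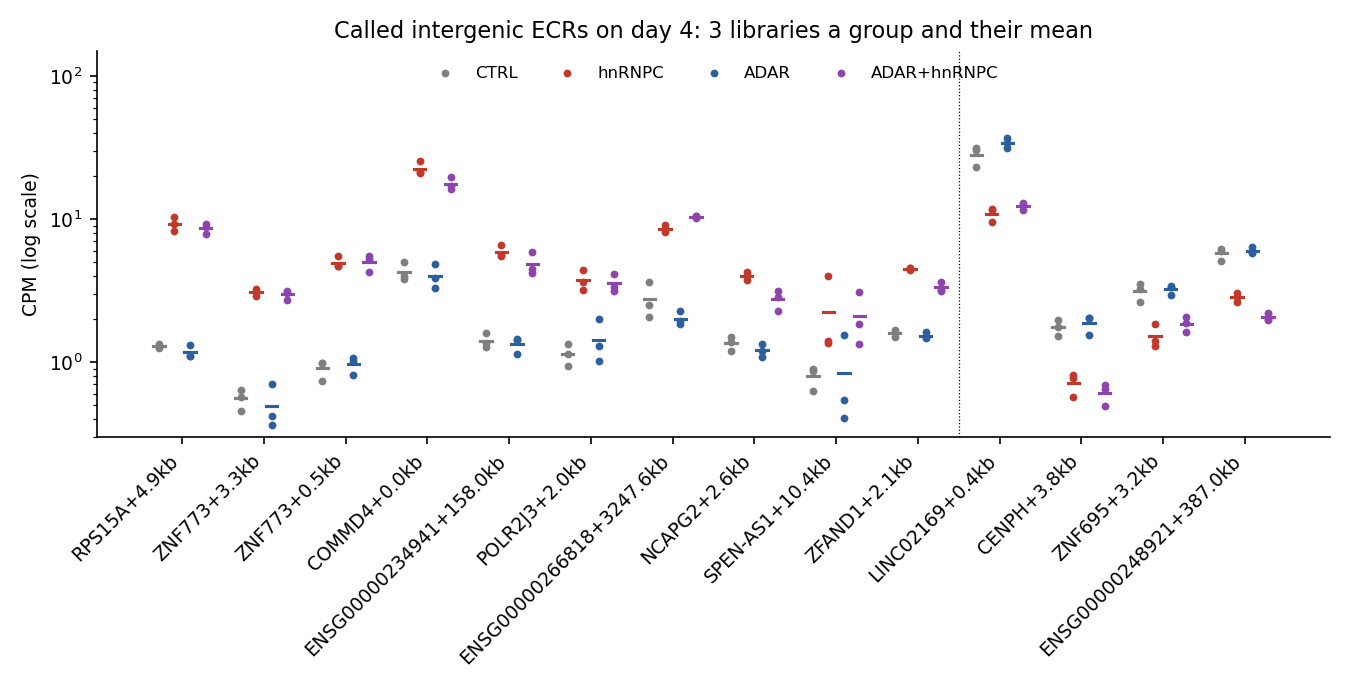
Levels of the 14 named regions called in hnRNPC against CTRL cells on day 4, in CPM on a log axis, for CTRL, hnRNPC, ADAR and ADAR+hnRNPC cells of that day. Points are the 3 libraries of a group, bars are group means, and the dotted line separates the 10 regions that rose from the 4 that fell. In RPS15A+4.9kb both groups with hnRNPC gRNA sit at 7.90 CPM or above and both without it at 1.33 CPM or below.

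The regions that rose were also counted by distance from the upstream gene end. Of the regions tested within 1 kb of the upstream gene end, 3 of 87 rose on day 4 (3.45%), against 11 of 70 at 1 to 5 kb (15.7%), 9 of 31 at 5 to 20 kb (29.0%) and 4 of 35 beyond 20 kb (11.4%). The median log2 fold changes in these classes were 0.16, 0.44, 0.32 and 0.19. Beyond 1 kb, 24 of 136 regions (17.6%) rose and 3 fell. Among the 115 tested regions that touched no gene, 19.1% rose. The regions within 1 kb also had the highest counts, and the part of mature gene ends in their reads was not tested. The difference between distance classes was not tested either.

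**Figure D2:**
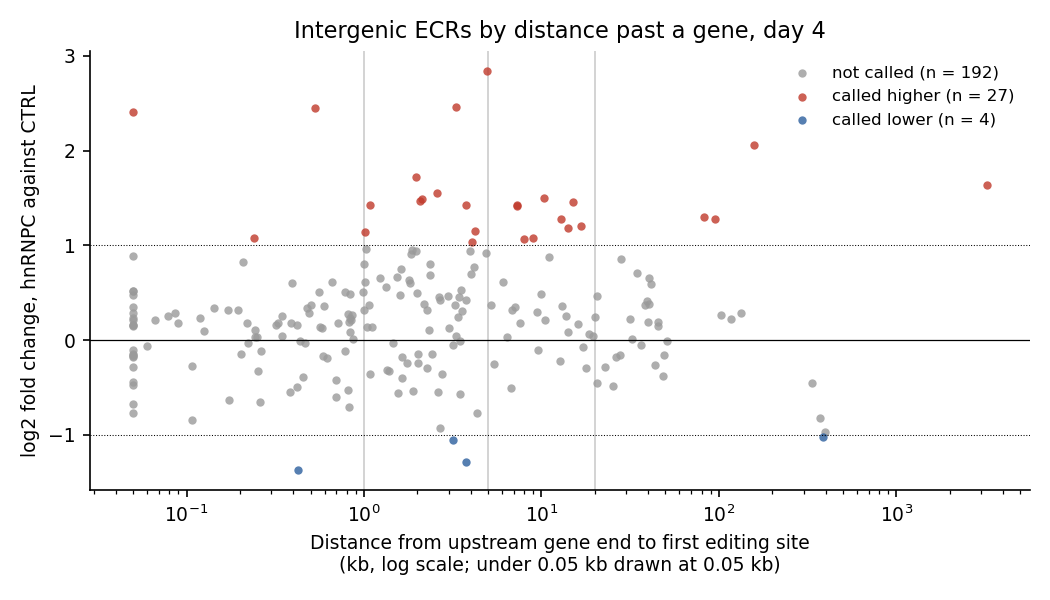
The log2 fold change of hnRNPC against CTRL on day 4 (vertical axis) against the distance from the upstream gene end on the same strand in kb (log axis, distances under 0.05 kb drawn at 0.05). Each point is an intergenic ECR, the dotted lines mark a change of 1 in either direction, and the grey lines mark 1, 5 and 20 kb. Of 223 regions, 27 were called higher and 4 lower, and 3 of the 27 lie within 1 kb.

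To compare each region with its gene, the log2 ratio of the ECR to the upstream gene within 50 kb was tested with limma (2 counts added to both). ECRs with the midpoint inside a gene on their strand were set against that gene instead. Shares over all ECRs thus mix both kinds of ratio. Of 168 intergenic regions with such a gene, the ratio rose for 19 and fell for 2 on day 4, beside 5.84 and 0.707% of all 2262 ECRs tested. On day 3 it rose for 11 and fell for 2 (4.82 and 0.309% of all), and on day 5 it rose for 13 and fell for 6 (5.44 and 1.68%). The day 3 count of 11 became 21 without hnRNPC replicate 3. Of the 27 regions that rose in abundance on day 4, 18 could be tested and 11 had a higher ratio. The ratio uses the ECR counts of the same libraries that gave these regions their call. A higher ratio is thus largely built in unless the gene rises too, and it is not separate evidence. The share among all ECRs that rose was not counted. The changes of the ratio were 2.90 ± 0.18 for RPS15A+4.9kb, 2.74 ± 0.13 for COMMD4+0.0kb and 1.58 ± 0.19 for ZNF773+3.3kb.

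The 4 regions that fell on day 4 were led by LINC02169+0.4kb (chr16:54277971-54280033), which touches the lncRNA gene LINC02169. It was at 23.1, 30.3 and 31.2 CPM in CTRL, 9.51, 11.6 and 11.7 CPM in hnRNPC, 31.6, 37.0 and 34.0 CPM in ADAR and 11.6, 12.9 and 12.6 CPM in ADAR+hnRNPC cells, a log2 fold change of -1.37 ± 0.09 in hnRNPC against CTRL (edgeR adjusted p = 2.6e-15). The lncRNA was at 53.8, 62.6 and 67.8 CPM in CTRL and at 25.2, 29.3 and 28.1 CPM in hnRNPC cells. On day 5 the change of LINC02169+0.4kb was -1.92 ± 0.09, with or without CTRL replicate 1 of that day.

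CENPH+3.8kb (chr5:68508963-68511530) and ZNF695+3.2kb (chr1:247104612-247106688) fell behind genes whose hnRNPC libraries lay above those of CTRL. CENPH+3.8kb was at 1.98, 1.75 and 1.52 CPM in CTRL and 0.771, 0.809 and 0.566 CPM in hnRNPC cells (-1.29 ± 0.21). CENPH, a kinetochore gene, was at 35.3, 39.7 and 37.7 CPM in CTRL and 72.9, 79.2 and 68.6 CPM in hnRNPC cells. ZNF695+3.2kb was at 2.64, 3.50 and 3.26 CPM in CTRL and 1.30, 1.40 and 1.84 CPM in hnRNPC cells (-1.05 ± 0.16), while the zinc finger gene ZNF695 was at 28.2, 32.9 and 34.4 CPM and at 74.1, 80.1 and 82.9 CPM. The libraries of the groups did not overlap for either region or gene, and the ratio of region to gene changed by -2.25 ± 0.20 for CENPH+3.8kb and -2.37 ± 0.14 for ZNF695+3.2kb. For the regions, this separation largely follows from their call on the same libraries. The count of 4 lower regions dropped to 2 without CTRL replicate 2 or without hnRNPC replicate 2 of day 4, and ZNF695+3.2kb was no longer called without either of them or without hnRNPC replicate 1.

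The last of the 4, ENSG00000248921+387.0kb (chr4:181164729-181166779), belongs to a group of 4 regions on chromosome 4 that lie far from genes. Their distances to the nearest gene on either strand were 73931, 109066, 126413 and 138369 bp, and together with CNN2P11+3078.2kb (chr2:92312197-92314267, 89171 bp) they were the 5 regions farthest from any gene. ENSG00000248921+387.0kb was at 5.08, 6.02 and 6.19 CPM in CTRL and 3.04, 2.62 and 2.84 CPM in hnRNPC cells on day 4 (-1.03 ± 0.16). It was at 6.51, 6.75 and 7.71 CPM and 1.21, 1.59 and 2.24 CPM on day 5 (-2.06 ± 0.17, edgeR adjusted p = 3.7e-13), and at -2.10 on that day without CTRL replicate 1. ENSG00000248921+387.0kb was not called on day 4 without CTRL replicate 2, CTRL replicate 3 or hnRNPC replicate 2.

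Its 3 neighbors were lower on day 5 as well, to an extent that depended on CTRL replicate 1. ENSG00000248921+399.0kb (chr4:181176685-181180234) was at 6.91, 4.38 and 3.61 CPM in CTRL and 1.10, 1.38 and 1.28 CPM in hnRNPC cells, with a log2 fold change of -1.98 ± 0.23 and -1.67 without that library. ENSG00000248921+334.5kb (chr4:181112247-181116942) was at 17.3, 6.61 and 4.56 CPM in CTRL and 3.82, 4.21 and 4.65 CPM in hnRNPC cells. Its change of -1.16 ± 0.34 became -0.40 and was not called without CTRL replicate 1, for ENSG00000248921+334.5kb. For ENSG00000248921+369.6kb (chr4:181147382-181149503) a change of -1.26 ± 0.29 became -0.69 and lost its call in the same way.

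Summed over the 4 chromosome 4 regions, the levels on day 5 were 36.1, 20.1 and 17.9 CPM in CTRL, 7.28, 8.48 and 9.80 CPM in hnRNPC and 7.01, 9.09 and 9.36 CPM in ADAR+hnRNPC cells. On day 4 they were 17.6, 20.4 and 14.8 CPM in CTRL and 11.3, 9.71 and 9.83 CPM in hnRNPC cells. CTRL and hnRNPC libraries did not overlap on days 4 and 5, with or without CTRL replicate 1 of day 5. On day 3 they did overlap, at 17.5, 16.8 and 15.1 CPM in CTRL and 12.8, 15.3 and 9.26 CPM in hnRNPC cells. The GFP libraries of day 3 also lay partly inside the hnRNPC range of that day. How often all ECRs show such a separation was not counted.

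**Figure D3:**
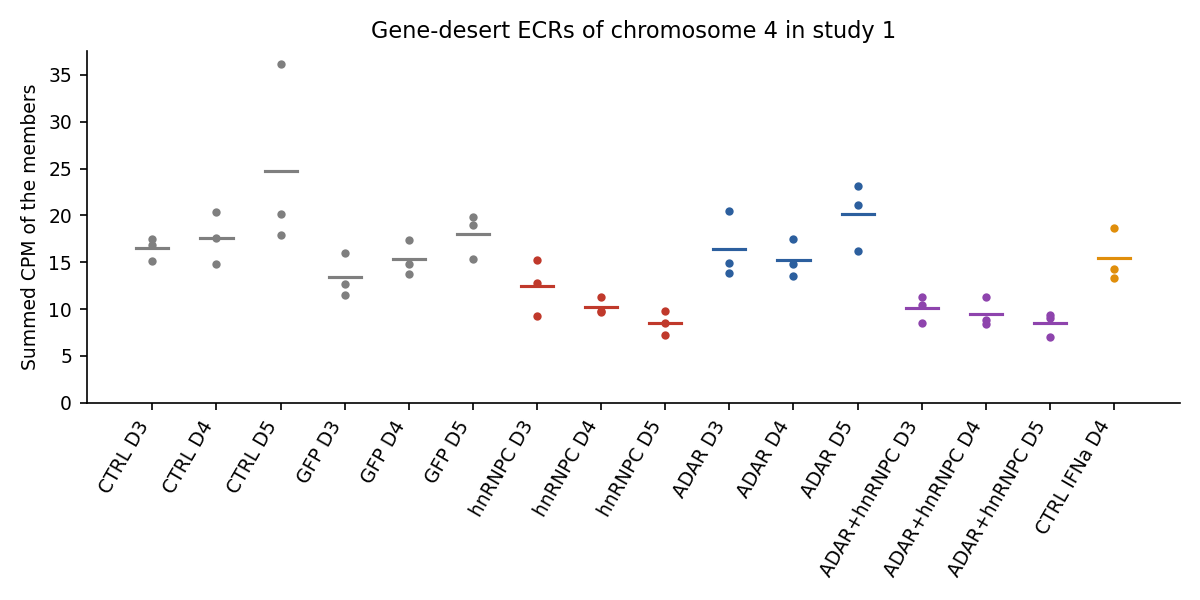
Summed CPM of the 4 intergenic ECRs on chromosome 4 that lie 73931 to 138369 bp from the nearest gene, in each library (points) with the group mean (bars), on a linear axis from 0. On day 5 the hnRNPC libraries sit between 7.28 and 9.80 CPM and the CTRL libraries between 17.9 and 36.1 CPM, the highest of which is replicate 1.

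On day 3, 26 intergenic regions rose and 0 fell in hnRNPC against CTRL cells, beside 4.79 and 0.435% of all ECRs tested. The median log2 fold change was 0.26 over intergenic regions and 0.10 over all ECRs. On day 5, 21 rose and 15 fell, beside 4.98 and 4.31% of all ECRs, with medians of 0.03 and -0.08. The shares of intergenic regions that rose were 11.7 and 9.42% on days 3 and 5. Without CTRL replicate 1 of day 5, 12 fell. Days have separate CTRL libraries, and 17 regions rose on all 3 days, 32 on at least 1, and none both rose and fell. Calls shared between days were not counted over all ECRs. The 15 regions lower on day 5 came from 11 loci and included all 4 that fell on day 4. When libraries were scaled by ECR totals instead of gene totals, the median of all ECRs shifted by -0.10 on days 3 and 4, and 18 regions rose and 0 fell on day 3 and 23 rose and 6 fell on day 4.

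The same question was asked in cells that also received ADAR gRNA, where ADAR+hnRNPC and ADAR cells share no library with the comparison above. RNA from 29 intergenic regions rose and from 5 fell on day 4, beside 6.65 and 1.31% of all ECRs tested. On day 3, 15 rose and 1 fell (2.93 and 0.593% of all), and on day 5, 21 rose and 23 fell (6.84 and 6.69% of all). Intergenic medians were 0.12, 0.15 and -0.06 on days 3, 4 and 5, and those of all ECRs 0.01, 0.05 and -0.15. With libraries scaled by ECR totals, the median of all ECRs on day 5 shifted by 0.15 and the split became 25 higher and 17 lower. Of the 27 regions that rose with hnRNPC gRNA alone on day 4, 23 also rose here, which is 85.2% of the 27 and 79.3% of the 29. On day 3 the shared regions were 15 (57.7% of 26 and all 15), and 8 regions rose on all 3 days in both comparisons. Of the regions that fell, 3 of the 4 of day 4 and 10 of the 15 of day 5 fell here too. How often the calls among all ECRs were shared in this way was not counted, so the sharing is not a trait particular to intergenic regions.

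RPS15A+4.9kb again changed most, by 2.89 ± 0.16 in ADAR+hnRNPC against ADAR cells on day 4. ZNF773+3.3kb changed by 2.59 ± 0.20, ENSG00000266818+3247.6kb by 2.36 ± 0.27 and COMMD4+0.0kb by 2.15 ± 0.14. Against CTRL, which the next values share with the hnRNPC comparison, ADAR+hnRNPC cells had 17, 29 and 21 intergenic regions that rose on days 3, 4 and 5, and 0, 5 and 34 that fell. The background of calls in either direction was 3.76, 7.12 and 16.7% of all ECRs on the 3 days. Scaling by ECR totals shifted the day 5 median of all ECRs by 0.21 and gave 26 higher and 16 lower, so whether more regions rose or fell on that day depends on the scale.

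ADAR gRNA without hnRNPC gRNA changed the abundance of none of the 223 intergenic regions on any day by edgeR, where 0, 0.0791 and 0.0791% of all ECRs were called on days 3, 4 and 5, and 5, 19 and 32 regions had an unadjusted p under 0.05. DESeq2 likewise called 0. GFP gRNA, a targeting control, gave 0 calls among intergenic regions (0, 0.0396 and 0% of all ECRs), with 9, 11 and 41 regions at an unadjusted p under 0.05. IFN-α on CTRL cells gave 0 calls as well (0.87% of all ECRs), with 65 regions at an unadjusted p under 0.05. Leaving out CTRL replicate 1 or IFN-α replicate 3 of day 4 gave 2 calls for IFN-α.

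The next comparison asked how editing inside the regions responds. Editing was measured as the share of reads with the edited base, summed over the sites of a region that pass the study's levels (at least 10 reads, 5% edited in all libraries of a group and 10% in 2 of them) and lie in clusters. Regions held a median of 5 such sites (0 to 117), and 114 of the 277 (41.2%) held none, and this rule returned the deposited bounds of only 357 of 2875 ECRs. In ECRs within genes 45.4% held none. The change was tested as a log2 odds ratio with limma for the 44 intergenic regions with at least 100 reads on sites in every library, among 532 such ECRs. A site could pass through any group, so sites in both studies entered more easily through groups with high editing. This tilts the tests toward falls in ADAR cells and rises with IFN-α, to an extent that was not tested.

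In ADAR cells, editing fell in 40, 43 and 43 of the 44 regions on days 3, 4 and 5, beside 97.2, 97 and 97.6% of all ECRs tested. Pooled over intergenic sites, the CTRL libraries of day 4 were edited at 14.3 to 14.6% and the ADAR libraries at 5.64 to 6.05%. The 95% Wilson intervals, which cover counting error alone, span 14.1 to 14.6% in the first CTRL library. Values on days 3 and 5 were 13.5 to 15.5% and 13.8 to 14.9% in CTRL and 5.95 to 6.35% and 5.94 to 6.02% in ADAR cells. The groups lay apart on each day. Median log2 odds ratios were -1.42, -1.55 and -1.40. GFP gRNA changed editing in 0 regions on each day by limma (0, 0 and 0% of all ECRs), with 3, 0 and 2 regions at an unadjusted p under 0.05, and the GFP libraries of day 4 were edited at 13.6 to 15.0%.

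When hnRNPC was targeted as well, ADAR+hnRNPC against hnRNPC cells had lower editing in 43, 42 and 35 of 44 regions on days 3, 4 and 5, beside 93.6, 97.6 and 78.8% of all ECRs. The pooled share was 6.73 to 7.54% in ADAR+hnRNPC cells of day 3, 6.93 to 7.54% on day 4 and 9.33 to 9.78% on day 5. The day 5 libraries were thus above those of both earlier days. Median log2 odds ratios were -1.31, -1.33 and -0.82. ADAR mRNA was at 1165 to 1509 CPM in these day 5 libraries, at 373 to 396 in ADAR and at 364 to 412 in CTRL cells of that day, and its part in the editing level was not tested.

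IFN-α moved editing upward in 31 of the 44 regions, beside 79.3% of all ECRs, with a median log2 odds ratio of 0.95. The pooled share was 21.7, 24.2 and 27.1% in the 3 IFN-α libraries, all above the 14.3 to 14.6% of CTRL. ADAR, whose long isoform is induced by interferon, was at 1053 to 1373 CPM there and at 397 to 416 CPM in CTRL.

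**Figure D4:**
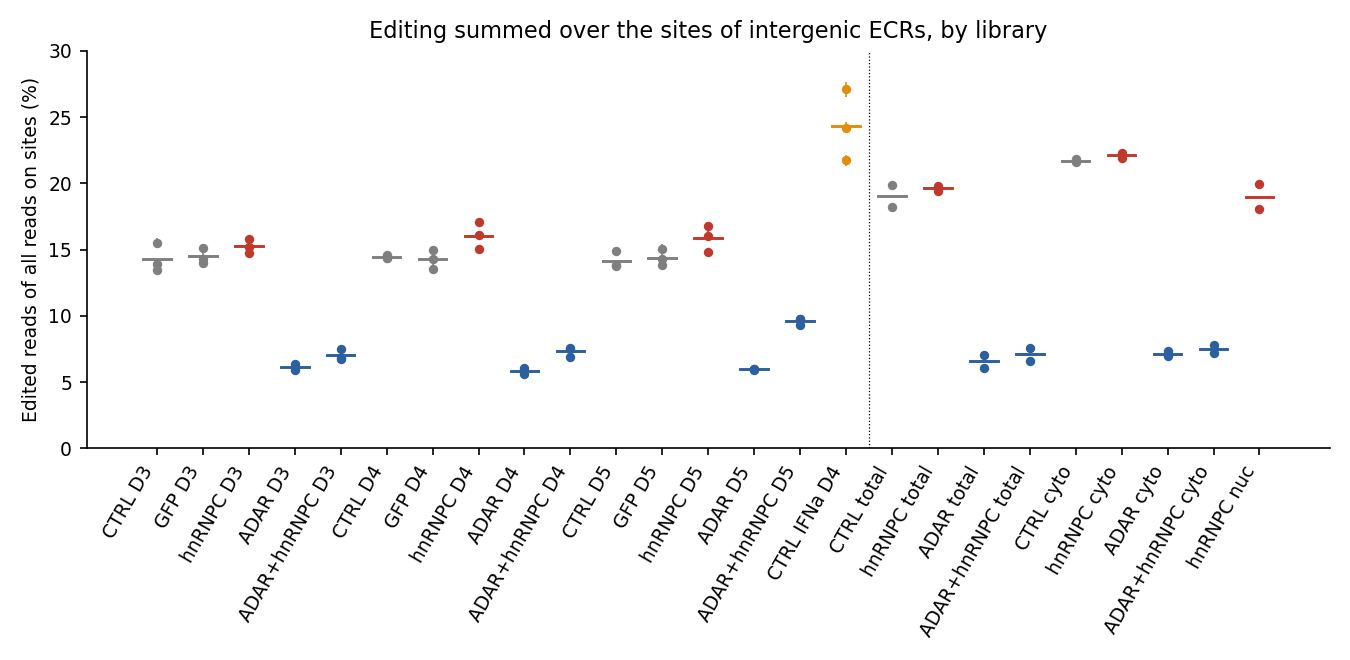
Share of reads with the edited base, in percent, pooled over the editing sites in intergenic ECRs, for each library. Points are libraries, thin vertical lines their 95% Wilson intervals, bars group means, and the dotted line separates study 1 from study 2. ADAR libraries of study 1 sit at 6.35% or below on all days, CTRL libraries at 13.5% or above, and ADAR+hnRNPC libraries of day 5 between 9.33 and 9.78%.

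The fall in editing was largest in PXK+0.9kb (chr3:58411725-58414268), where 9.27, 12.2 and 9.68% of reads were edited in hnRNPC cells of day 4 and 2.01, 2.48 and 2.10% in ADAR+hnRNPC cells (log2 odds ratio -2.28 ± 0.38, limma adjusted p = 1.3e-06). CDKN2C+36.3kb (chr1:51475636-51479616), 35330 bp from any gene, has 55 sites and the firmest values of the 5. It was edited at 9.29, 11.0 and 10.6% in CTRL (2158 to 2615 reads), 9.28, 11.0 and 10.0% in hnRNPC, 2.80, 2.58 and 2.26% in ADAR and 2.41, 2.75 and 3.25% in ADAR+hnRNPC cells of day 4. The ADAR+hnRNPC libraries of day 5 were at 6.16, 5.10 and 4.60%, between those levels, and the IFN-α libraries at 21.5, 23.6 and 27.4%. The change in CDKN2C+36.3kb against hnRNPC was -1.96 ± 0.16 on day 4 and -0.66 ± 0.16 on day 5. ZNF324B+0.1kb (chr19:58968279-58972265), RILPL2+0.2kb (chr12:123894650-123900366) and CENPL+2.4kb (chr1:173764073-173767336) followed with -1.93 ± 0.21, -1.84 ± 0.39 and -1.83 ± 0.37.

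The 5 regions with the most sites fell as well. NDUFS5P5+28.2kb (chr4:119285247-119294452, 117 sites, 11089 bp from a gene) was edited at 12.1, 12.1 and 13.4% in CTRL, 4.43, 4.57 and 4.96% in ADAR, 5.17, 5.76 and 5.52% in ADAR+hnRNPC and 15.1, 16.5 and 15.7% in hnRNPC cells, so that the last group lay above CTRL without overlap. That difference, a log2 odds ratio of 0.39 ± 0.14, did not pass (limma adjusted p = 0.12). In abundance it went from 18.2, 18.2 and 19.8 CPM to 36.7, 32.1 and 32.9 CPM in hnRNPC cells, a log2 fold change of 0.85 ± 0.09 that stays under the size threshold. EXO5+4.8kb (chr1:40985559-40990667, 91 sites), behind an exonuclease gene, was edited at 12.8, 14.1 and 13.4% in CTRL and 4.79, 7.59 and 5.60% in ADAR cells. ALYREF+0.7kb (chr17:79837075-79846018, 86 sites, touching the gene of an mRNA export factor), GTF3C6+0.1kb (chr6:111288200-111293291, 75 sites) and SMAP2+2.6kb (chr1:40890641-40900864, 70 sites) changed by -1.78 ± 0.21, -1.86 ± 0.17 and -1.70 ± 0.26 in ADAR against CTRL cells.

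In hnRNPC against CTRL cells, editing was higher in 0, 2 and 3 of 44 regions on days 3, 4 and 5, beside 0.94, 5.45 and 6.2% of all ECRs, with medians of 0.06, 0.15 and 0.15. Named after their values were seen, the day 4 regions were ZNF98+0.5kb (chr19:22569950-22574346, 0.78 ± 0.21, limma adjusted p = 0.023) and TMED4+0.0kb (chr7:44613405-44621508, 0.69 ± 0.21, limma adjusted p = 0.044), and both were also higher on day 5, joined by MIR3187+9.5kb (chr19:822184-827712, 0.78 ± 0.25, limma adjusted p = 0.047). Leaving out any of the 6 libraries of day 4 left 0 calls, and for day 5 the counts were 0 to 2. The pooled shares of day 4 were 15.0 to 17.0% in hnRNPC and 14.3 to 14.6% in CTRL cells.

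Study 2 asked where in the cell the RNA is found. Over the 4 gRNA groups, 26 of 221 intergenic regions were lower and 1 was higher in cytosolic than in total RNA, beside 13.1 and 0.445% of all 2470 ECRs tested. The median log2 ratio was 0.02 over intergenic regions and -0.02 over all ECRs, and 26 of 221 is close to the share in all ECRs. As a check of the fractions, MT-ND1 was at 1.1 to 2.9 CPM in the cytosolic and 29.8 to 155.6 CPM in the total libraries. The nuclear lncRNA MALAT1 was at 696 to 940 CPM in cytosolic and 2025 to 2265 CPM in nuclear RNA of hnRNPC cells. Their total RNA was at 867 to 1416 CPM, a range that overlaps the cytosolic one. In the other gRNA groups MALAT1 was lower in cytosolic than in total RNA without overlap. It was at 1148 to 2723 CPM in CTRL total and 731 to 875 CPM in CTRL cytosolic RNA. In the same order it was at 824 to 917 and 516 to 539 CPM in ADAR cells. In ADAR+hnRNPC cells it was at 1817 to 2219 and 377 to 423 CPM.

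HGSNAT+34.8kb (chr8:43091768-43098489), 3409 bp from the nearest gene, was the region most depleted from the cytosol. It was at 106 and 104 CPM in CTRL total and 7.70 and 17.4 CPM in CTRL cytosolic RNA, and at 172 and 168 CPM, 9.18 and 20.4 CPM, and 673 and 508 CPM in the total, cytosolic and nuclear RNA of hnRNPC cells. The log2 ratio of cytosolic to total RNA was -3.47 ± 0.18 (n = 8 and 8, edgeR adjusted p = 3.3e-12) and that of cytosolic to nuclear RNA -5.32 ± 0.39. Its day 4 levels in study 1 spread widely, from 42.4 to 133 CPM within CTRL cells, and did not differ past the threshold in hnRNPC cells (0.70 ± 0.46). Editing at its 53 sites was not tested in study 1 for lack of reads. In study 2, CTRL total RNA was edited at 17.7 and 14.8% (571 and 500 reads) and ADAR total RNA at 16.6 and 17.2% (664 and 360 reads), ranges that overlap, while hnRNPC nuclear RNA was at 27.3 and 26.3%. The GC content of HGSNAT+34.8kb was 25.2%, beside a median of 43.9% over the intergenic regions. It held an inverted repeat of 1241 bp at 84.1% identity. Whether repeated sequence affected its mapping was not tested, so its values are uncertain.

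Next in depletion was GPX1+1.8kb (chr3:49391645-49393798), behind a glutathione peroxidase gene, at 3.50 and 3.62 CPM in total and 0.682 and 0.754 CPM in cytosolic RNA of CTRL cells (-2.34 ± 0.12), while GPX1 itself was at 762 and 592 CPM in total and 1035 and 963 CPM in cytosolic RNA. ROCK1+12.9kb, at 5.05 and 5.06 CPM in total and 1.33 and 2.07 CPM in cytosolic RNA, had a ratio of -1.95 ± 0.13. This region was also among those that rose in hnRNPC cells of day 4 (1.28 ± 0.28), as was its neighbor on chromosome 18, ENSG00000266818+3247.6kb, which had -1.67 ± 0.15. NUCB1+0.4kb (chr19:49426113-49428351) had -1.85 ± 0.10, and NUCB1 itself was at 87.1 and 61.1 CPM in CTRL total and 15.3 and 14.7 CPM in CTRL cytosolic RNA. KIFBP+43.8kb, the region that touches SRGN, was at 633 and 397 CPM in CTRL total and 117 and 106 CPM in CTRL cytosolic RNA (-1.85 ± 0.10).

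At the other end, MAPRE1+4.2kb (chr20:31441372-31443461), behind a microtubule plus-end protein gene, was the only region called higher in the cytosol. It was at 8.03 and 13.4 CPM in CTRL total and 18.7 and 18.5 CPM in CTRL cytosolic RNA, and at 10.1 and 9.89 CPM and 29.7 and 26.2 CPM in hnRNPC cells (1.03 ± 0.11, edgeR adjusted p = 5.5e-08). It lost its call without CTRL total replicate 1, without ADAR+hnRNPC total replicate 1 or without ADAR+hnRNPC cytosolic replicate 2. snoU13+1.3kb (chr12:66739942-66742081), SMIM15+0.3kb (chr5:60452194-60454271), PGM2+1.1kb (chr4:37864639-37867307) and ATOX1+13.1kb (chr5:151104961-151109775) had ratios of 0.72, 0.71, 0.68 and 0.67, under the size threshold.

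Cytosolic depletion was also described by distance from the upstream gene end on the same strand. This is not the distance to any gene, since HGSNAT+34.8kb lies 3409 bp from a gene, ENSG00000266818+3247.6kb lies 3383 bp from one and KIFBP+43.8kb touches one. The median log2 ratio of cytosolic to total RNA was 0.22 within 1 kb of the upstream gene, -0.04 at 1 to 5 kb, -0.18 at 5 to 20 kb and -0.30 beyond 20 kb. In the same order, 5 of 89 (5.62%), 7 of 68 (10.3%), 6 of 29 (20.7%) and 8 of 35 (22.9%) regions were called lower. No test compared the classes, and neighboring regions of the same locus were counted singly. The ratio of ECR to upstream gene fell in cytosolic against total RNA for 15 of 162 regions and rose for 2 (9.72 and 0.9% of all 2223 ECRs). In hnRNPC cells, 45 regions were lower and 21 higher in cytosolic than in nuclear RNA, beside 21.6 and 7.29% of all ECRs, with medians by distance of 0.26, -0.24, -0.23 and -0.63. Scaling by ECR totals shifted the median of all ECRs by 0.13 in that comparison and gave 38 lower and 26 higher.

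**Figure D5:**
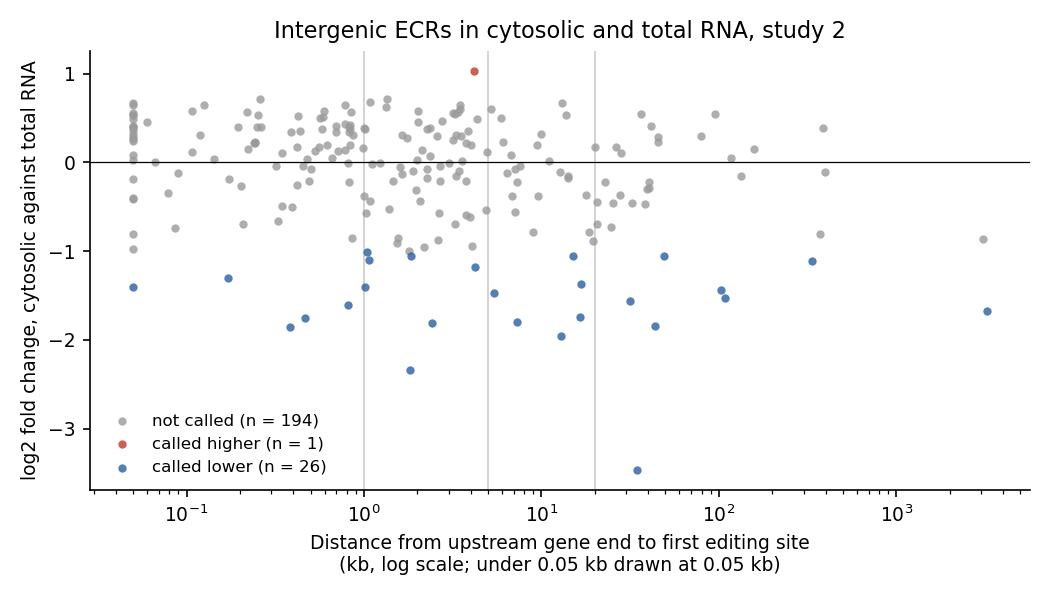
The log2 ratio of cytosolic to total RNA in study 2, as the mean over 4 gRNA groups (vertical axis), against the distance from the upstream gene end on the same strand in kb (log axis). Each point is 1 of 221 intergenic ECRs, of which 26 were called lower and 1 higher. The median is 0.22 within 1 kb and -0.30 beyond 20 kb, a difference that was not tested.

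Regions that rose with hnRNPC loss in study 1 were also looked at in study 2, which shares no library with it. Of the 27, 24 were tested there, and 23 had a positive log2 fold change in hnRNPC against CTRL total RNA, with a median of 0.87, beside 130 of all 221 intergenic regions tested. Without CTRL total replicate 1, 21 of the 24 were positive with a median of 0.78, and without CTRL total replicate 2 all 24 were, with a median of 1.02. In ADAR+hnRNPC against ADAR total RNA all 24 were positive, with a median of 1.07, beside 131 of the 221. Their median ratio of cytosolic to total RNA was -0.36, and 7 were called lower in the cytosol, beside 26 of the 221 and 13.1% of all ECRs. RPS15A+4.9kb was at 1.25 and 1.63 CPM in CTRL and 4.55 and 4.69 CPM in hnRNPC total RNA (1.68 ± 0.23, edgeR adjusted p = 0.00018). The value of RPS15A+4.9kb was 1.50 without CTRL total replicate 1 and 1.90 without CTRL total replicate 2, and it was called in both. Its cytosolic libraries were at 0.942 and 1.56 CPM in CTRL and 5.28 and 4.84 CPM in hnRNPC cells, so this RNA was not depleted from the cytosol past the threshold (0.12 ± 0.12 against total RNA).

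As calls within study 2, 11 intergenic regions rose and 0 fell in hnRNPC against CTRL total RNA (2.27% of all ECRs in either direction), and 9 of these 11 were among the 27. Calls shared between the studies were not counted over all ECRs. In cytosolic RNA 12 rose and 0 fell (2.15% of all). That count depended on single CTRL cytosolic libraries, with 5 calls without replicate 1 and 20 without replicate 2. In ADAR+hnRNPC against ADAR cells, 24 rose and 0 fell in total RNA (6.88% of all) and 6 rose and 0 fell in cytosolic RNA (1.78% of all), the latter count being 3 without ADAR cytosolic replicate 1. CNN2P11+3078.2kb, which had too few counts for study 1, rose from 0.376 and 0.954 CPM to 2.24 and 1.67 CPM in hnRNPC total RNA (1.57 ± 0.42, edgeR adjusted p = 0.024). The change in CNN2P11+3078.2kb was 2.39 without CTRL total replicate 2 and 1.03 without CTRL total replicate 1, and the call was lost without the latter or without either hnRNPC total library.

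ADAR against CTRL total RNA of study 2 gave 9 lower and 0 higher intergenic regions, beside 5.22% of all ECRs in either direction. None of the 9 kept its call in all 4 fits without a library: the count was 25 without CTRL total replicate 1, 0 without CTRL total replicate 2, 13 without ADAR total replicate 1 and 4 without ADAR total replicate 2. With libraries scaled by ECR totals, which shifted the median of all ECRs by 0.16, 3 were lower and 0 higher.

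Editing in study 2 could be tested for 80 intergenic regions among 725 ECRs. It fell in 73 in ADAR against CTRL total RNA (93.1% of all, median log2 odds ratio -1.85) and in 74 in ADAR+hnRNPC against hnRNPC total RNA (96.6% of all, median -1.80). Pooled shares were 19.9 and 18.2% in CTRL, 19.8 and 19.4% in hnRNPC, 7.06 and 6.11% in ADAR and 7.61 and 6.58% in ADAR+hnRNPC total RNA. Cytosolic RNA was edited more than total RNA in 14 of the 80 regions and less in 0 (19.3% of all were higher), with a median of 0.17. CTRL cytosolic libraries were at 21.6 and 21.8%, hnRNPC cytosolic libraries at 21.9 and 22.3% and hnRNPC nuclear libraries at 18.1 and 19.9%.

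Sequence features that the selection did not use were similar to those of ECRs in genes. A run of at least 9 T on the transcript strand occurred in 65.7% of the intergenic ECRs and 72.0% of those in genes, and an inverted repeat of at least 100 bp at 70% identity in 69.0 and 71.6%. The 12-base word CCTGTAATCCCA, which is common in Alu elements, or its reverse complement TGGGATTACAGG, was found in 81.9% of the intergenic regions and 85.7% of ECRs in genes, and both orientations together in 40.1 and 41.5%. The word was picked as the one found in the most of these same ECRs, leaving out words rich in a single base. Its high share in both sets therefore follows from that choice. The median GC content was 43.9 and 43.1%. Of the 27 regions that rose on day 4, 66.7% held the T run, 66.7% the inverted repeat and 81.5% the word, against 67.3, 72.4 and 84.2% of the other 196 regions tested. These shares describe the letters of the intervals and were not tested.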

How the data were processed

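The authors aligned stranded, rRNA-depleted total RNA reads to GRCh37 with STAR 2.5.4a and deposited, per library, raw counts of uniquely mapped reads on genes and ECRs (featureCounts) and, per editing site, counts of edited and of all high-quality reads. The strand setting of the counting is not given in the sources used here, so RNA of opposite strands cannot be told apart. Genes came from a GENCODE annotation lifted to GRCh37 that is newer than the one stated for the deposited gene counts. Members and lists were chosen with earlier results of these data known.

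ECR counts were fitted in edgeR 4.0.16 (R 4.3.3) with the gene total times TMM factor as library size, all libraries of a study in 1 model and Benjamini-Hochberg adjustment over all ECRs tested. Editing odds (pseudocount 0.5, sites with an empty value left out) and ratios of ECR to gene were fitted with limma 3.58.1. On simulated data the scripts were tested for recovery of known changes. Wilson intervals cover counting error only. 0 columns lacked a sample.

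Replicate numbers came from the labels. Deviations from group means of same-numbered libraries correlated at 0.17 to 0.71 in hnRNPC against CTRL on day 3, at 0.37 to 0.69 on day 4 and at 0.03 to 0.18 on day 5, and the replicate block was tried as an alternative. Replicates of a group differed by more than counting noise (chi-square per region at least 5.46 in study 1 and 3.33 in study 2). Other alternatives were DESeq2 1.42.0, limma with voom, library sizes from ECR counts, filters, site rules, annotations, prior counts and leaving out each library.

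Named regions are the 10 largest rises and up to 6 largest falls called in hnRNPC against CTRL on day 4, the 5 highest in RPKM, the 5 with the most sites, the 5 largest falls of editing in ADAR+hnRNPC against hnRNPC on day 4, the 5 highest and 5 lowest cytosolic ratios and the 5 farthest from a gene. Named reference genes were HNRNPC, ADAR, MALAT1, NEAT1, ACTB and MT-ND1, of which NEAT1 was at 40.9 to 336.6 CPM and ACTB at 5306 to 12773 CPM in study 2. Sequence windows of edited regions are not reported here.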

Additional observations from a re-analysis of the deposited data

Results flagged for a closer look

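For 7 of the 42 named regions, all replicates of hnRNPC against CTRL lay on one side of 0 in 1 setting and on the other side in another, relative to the mean of the controls. None of these differences was tested, and how often all ECRs show such opposite signs was not counted. In hnRNPC against CTRL the median log2 fold change over all ECRs was 0.10 on day 3 and -0.08 on day 5. The sign of a value of that size can depend on how libraries are scaled. The ranges given are over hnRNPC libraries and leave out the spread of the controls. In total RNA of study 2 those controls are the CTRL libraries that stood apart. HMGB2+0.2kb had mean log2 differences of 0.34 (0.29 to 0.38) in total RNA of study 2 and -0.23 (-0.28 to -0.13) on day 5. RPS6+0.4kb had 0.27 (0.15 to 0.40) and -0.41 (-0.50 to -0.34), and PXK+0.9kb 0.09 (0.0076 to 0.18) and -0.38 (-0.42 to -0.33), in the same settings. CDKN2C+36.3kb went from 0.14 (0.07 to 0.18) on day 3 to -0.48 (-0.59 to -0.29) on day 5, and ATOX1+13.1kb from 0.46 (0.33 to 0.63) to -0.093 (-0.20 to -0.02). MAPRE1+4.2kb had 0.76 (0.57 to 0.86) on day 4 and -0.10 (-0.12 to -0.08) in total RNA of study 2, and GPX1+1.8kb had 0.52 (0.08 to 1.16) and -0.50 (-0.54 to -0.46). For MAPRE1+4.2kb both hnRNPC total RNA libraries lay between the CTRL total RNA libraries, so its sign there rests on the mean of the controls. None of these 7 regions was called in hnRNPC against CTRL cells of study 1.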

How the results depend on the processing

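Scaling by ECR totals turned the balance of higher and lower calls on day 5, from 21 and 34 to 26 and 16 for ADAR+hnRNPC against CTRL and from 21 and 23 to 25 and 17 against ADAR. For hnRNPC against CTRL, scaling, DESeq2, limma with voom and the deposited genes alone moved no count of intergenic regions by more than 1.5 times. With the replicate block, the counts on days 3, 4 and 5 stayed at 26, 27 and 21 higher and 0, 4 and 15 lower, no count in any comparison moved by more than 1.5 times, and crossing the numbers in study 2 gave 10 in place of 11 for hnRNPC in total RNA.

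Without the low-count filter, the counts of higher regions became 42 and 34 for hnRNPC against CTRL on days 4 and 5, 44 and 33 for ADAR+hnRNPC against ADAR, 27 for ADAR+hnRNPC against CTRL on day 3 and 32 on day 5, and 1 each for ADAR on day 5 and IFN-α, while the lower counts became 42 in cytosolic against total and 68 against nuclear RNA. DESeq2 and scaling by ECR totals both gave 16 lower regions for ADAR+hnRNPC against CTRL on day 5, and 5 and 3 for ADAR in total RNA.

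Requiring the whole interval to lie in no gene left 158 members, with 3 and 15 lower for ADAR+hnRNPC against ADAR on days 4 and 5, 19 lower against CTRL on day 5, 7 higher ratios on day 3, 0 higher in cytosolic against total RNA, 8 higher against nuclear RNA, 3 calls in cytosolic ADAR+hnRNPC against ADAR RNA and 0 higher cytosolic ratios. Its editing counts were 9, 10 and 11 for ADAR, 11, 10 and 9 for ADAR+hnRNPC against hnRNPC, 0 and 0 for hnRNPC on days 4 and 5, 9 for IFN-α, and 26, 27 and 9 for ADAR, ADAR+hnRNPC and cytosolic RNA in study 2. Protein-coding genes alone gave 571 members.

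Editing counts followed the site rule, since it sets how many regions are tested. All deposited sites gave 180, 179 and 186 for ADAR, 172, 184 and 105 for ADAR+hnRNPC against hnRNPC, 6 for hnRNPC on day 5, 1 for GFP on day 4, 101 for IFN-α, and in study 2 162 for ADAR, 165 for ADAR+hnRNPC and 24 higher and 5 lower in the cytosol. A looser filter, chosen after seeing the data, gave 88, 87 and 87, then 84, 89 and 69, 0 and 1 for hnRNPC on days 4 and 5, 61 for IFN-α and 1 lower in the cytosol. At least 500 reads gave 8, 8 and 8, then 8, 8 and 7, 0 and 0 for hnRNPC, 8 for IFN-α, and 20, 20 and 4 in study 2.

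Leaving out 1 library gave, for hnRNPC against CTRL, 19 to 27 higher and 0 to 0 lower on day 3, 20 to 32 and 2 to 5 on day 4, and 19 to 22 and 12 to 16 on day 5, and of the 26, 31 and 36 regions called on these days 17, 20 and 27 were called in every such fit. ADAR+hnRNPC against ADAR gave 13 to 19 and 1 to 2, 24 to 36 and 4 to 5, and 19 to 21 and 22 to 27. ADAR+hnRNPC against CTRL gave 15 to 20 and 30 to 37 in either direction on days 3 and 4, and 19 to 22 higher and 28 to 37 lower on day 5. In study 2 the ranges were 9 to 14 for hnRNPC total, 5 to 20 for hnRNPC cytosolic, 16 to 28 and 3 to 6 for ADAR+hnRNPC against ADAR, 0 to 25 for ADAR, 0 to 1 higher and 24 to 29 lower in cytosolic against total RNA, and 14 to 29 and 40 to 50 against nuclear RNA. ADAR and GFP in study 1 gave 0 to 0 and IFN-α 0 to 2. Ratio counts were 9 to 21 and 2 to 2, 16 to 23 and 2 to 3, 11 to 16 and 5 to 7, and 2 to 2 and 15 to 17 in the cytosol. Editing counts were 38 to 41, 42 to 44 and 42 to 44 for ADAR, 41 to 42, 40 to 42 and 29 to 33 for ADAR+hnRNPC, 0 to 0, 0 to 0 and 0 to 2 for hnRNPC, 27 to 33 for IFN-α, and 70 to 72, 71 to 73, 10 to 16 higher and 0 to 1 lower in study 2. Where a count moved, the cause was not tested beyond the number of regions tested. Depth limits regions under the count filter, 54 in study 1 and 56 in study 2.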
